A study of Mus musculus with 4 samples.

Results

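Ras, Raf, MEK and ERK proteins form the relay that carries growth factor signals from the cell membrane to the nucleus. A receptor that has bound its ligand recruits the exchange factor Sos1, which loads Ras GTPases such as Hras and Nras with GTP. GTP-bound Ras activates Raf kinases such as Braf, Raf phosphorylates the MEK kinases Map2k1 and Map2k2, and these phosphorylate ERK kinases such as Mapk3. In the macrophage lineage the receptor for macrophage colony-stimulating factor (M-CSF) signals through this relay, among others, during proliferation and differentiation. The relay works mainly through binding and phosphorylation, which transcript levels do not measure.

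The genes described are Hras, Nras, Sos1, Braf, Map2k1, Map2k2 and Mapk3, and the members are all probe sets that the platform annotation assigns to 1 of these symbols. A probe set is a group of short oligonucleotides on the array that report 1 transcript region together. The rule found 5 of these genes, of 18193 genes named on the array, with 20 probe sets of 45101: 5 for Sos1, 3 for Nras, 9 for Braf, 1 for Map2k1 and 2 for Map2k2. For 2 of the 7 genes, Hras and Mapk3, the annotation used here names no probe set, so they were not analysed here.

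The study asked how bone marrow cells develop into macrophages in culture during space flight, and it compared 2 arrays of flown cultures (space flight) with 2 arrays of parallel cultures on the ground (ground control). All cultures started from marrow of 21 pooled adult C57BL/6 mice, given no genetic change in the labels, and grew at 37 °C in sealed glass barrels with 1.5 µg/ml recombinant mouse M-CSF, with medium added on culture day 6. Cells were lysed on culture day 15, which was day 14 of the flight. Each array held RNA of 2 combined barrels, and the 2 best of 4 such pools per group were chosen by RNA quality. The cultures are therefore not separate animals, and p-values cover only the spread between cultures and arrays. Values below are log2 intensities after quantile normalization, which gives all arrays the same distribution, and each difference is the space flight mean minus that of ground control.

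All 4 RNA pools were degraded by their integrity number of 3, and to unequal degrees by the control probe sets. The 3' to 5' signal ratio of Gapdh was 4.09 for space flight replicate 1 and 15.2 for replicate 2, where the ground control arrays had 4.13 and 3.33. The ratio of Actb was 3.08 and 4.91 in space flight, against 2.30 and 2.84 in ground control. Over all measured probe sets, those whose mean reached 6.40, replicates differed with an SD of 0.82 in space flight and 0.51 in ground control. The brightest of the macrophage markers looked at were Lyz2, lysozyme, and the M-CSF receptor gene Csf1r. Lyz2 averaged 15.25 in space flight and 15.31 in ground control, and Csf1r averaged 14.89 in space flight and 15.26 in ground control. The 3 measured probe sets of Csf1r had differences from −1.20 to −0.37. All 12 macrophage markers looked at were measured, with a mean level of 11.60 and 11.74 on the space flight arrays, against 11.93 and 12.14 on the ground control arrays. Of the 12, 3 were above 0 and 9 below, with differences from −1.47 to 1.02. Of 13 neutrophil markers 11 were measured, with mean levels of 11.48 and 11.97 in space flight and 10.45 and 10.53 in ground control. S100a8 and S100a9, calcium-binding proteins abundant in neutrophils, were the brightest of these, with differences of 0.79 and 1.36. Of the 11, 10 were above 0 and 1 below, the collagenase gene Mmp8 at −0.64. For the 7 measured of 11 erythroid markers the mean levels were 8.01 and 8.58 in space flight and 7.33 and 7.52 in ground control. Slc4a1, the red cell anion exchanger, and Alas2, an enzyme of haem synthesis, were the brightest of these, with differences of 2.17 and 1.23. Of the 7, 5 were above 0 and 2 below, the erythropoietin receptor gene Epor at −0.34 and the transcription factor gene Gata1 at −0.42. Mmp8, Epor and Gata1 are named after their values were seen. Of the lymphocyte and stroma markers few were measured: 2 of 8 for B lymphocytes, 1 of 6 for T and NK lymphocytes and 4 of 5 for marrow stroma. Of the B lymphocyte markers Vpreb1 differed by 0.32 and Cd79a by 0.84, and Nkg7 of the T and NK list by 0.91. Cxcl12 and Pdgfrb of the stroma list differed by 0.62 and −0.34. Of the 4 measured stroma markers 1 was above 0 and 3 below, down to −1.26. The part that cell composition and RNA quality had in the values below was not tested, and in RNA of mixed cells fewer cells of a type cannot be told apart from less RNA per cell.

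No probe set of these genes passed the test between space flight and ground control. Of the 20 probe sets, 15 were bright enough to be measured and 5 were dim. Among the 15, limma's moderated test with Benjamini-Hochberg adjustment over 22519 measured probe sets called 0 higher and 0 lower, with adjusted p from 0.363 to 0.968. Over all measured probe sets it called 10 higher and 1 lower, 0.0444% and 0.00444%. An unadjusted p under 0.05 was reached by 2 members, both of Nras, or 13.3% of the members against 12% of all measured probe sets. Of these 1 was higher and 1 lower, where 5.43% and 6.58% of all measured probe sets were. The groups did not overlap for 7 of the 15, or 46.7%, against 43.2% of all measured probe sets. By direction, space flight was the higher group without overlap in 1 of the 15, or 6.67%, against 20.7% of all measured probe sets. It was the lower group without overlap in 6 of the 15, or 40.0%, against 22.5%. Among the shares given so far, only those without overlap by direction were not near the background, and this departure was not tested. The probe sets of 1 gene share a transcript, so the 15 are not independent. An exact permutation test of 2 arrays against 2 cannot give a two-sided p below 0.333.

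**Figure D1:**
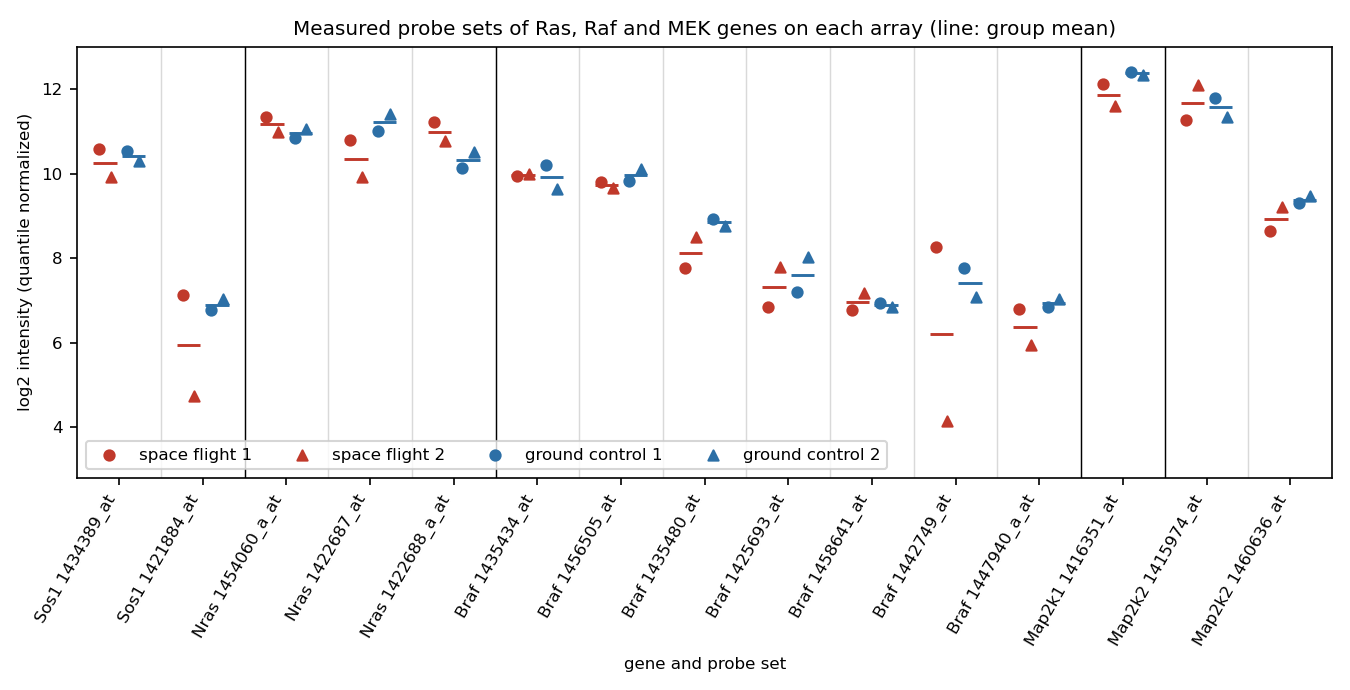
Log2 intensity (vertical axis) of the 15 measured probe sets of Sos1, Nras, Braf, Map2k1 and Map2k2 (horizontal axis) on each of the 4 arrays, with space flight in red, ground control in blue and a short line at each group mean. The 2 space flight arrays lie far apart on Sos1 probe set 1421884_at and Braf probe set 1442749_at, and the 3 Nras probe sets do not show 1 common order of the groups.

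The differences of the 15 ran from −1.22 to 0.67, with 10 below 0 and 5 above, where 48.6% of all measured probe sets were above 0. Their median was −0.30, where the median over all measured probe sets was −0.018. It turned to 0.050 over the brightest probe set of each of the 5 genes, was −0.14 without space flight replicate 2, and became −0.48 when ground control replicate 1 was left out. Their median absolute difference was 0.46, against 0.35 over all measured probe sets, and 1 of the 15 differed by 1 or more, where 8.56% of all measured probe sets did. The space flight replicates differed from each other by a median of 0.65 over the 15, against 0.27 for the ground control replicates. The 2 space flight replicates lay farther apart than the 2 ground control replicates on 13 of the 15. Space flight array 2 had the lowest of the 4 values on 7 of the 15, or 46.7%, where it did so on 31% of all measured probe sets. Space flight array 1 had the lowest on 5, or 33.3%, against 26.2%. Their Gapdh control ratios were 15.2 for array 2 and 4.09 for array 1, and a tie to RNA quality was not tested.

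**Figure D2:**
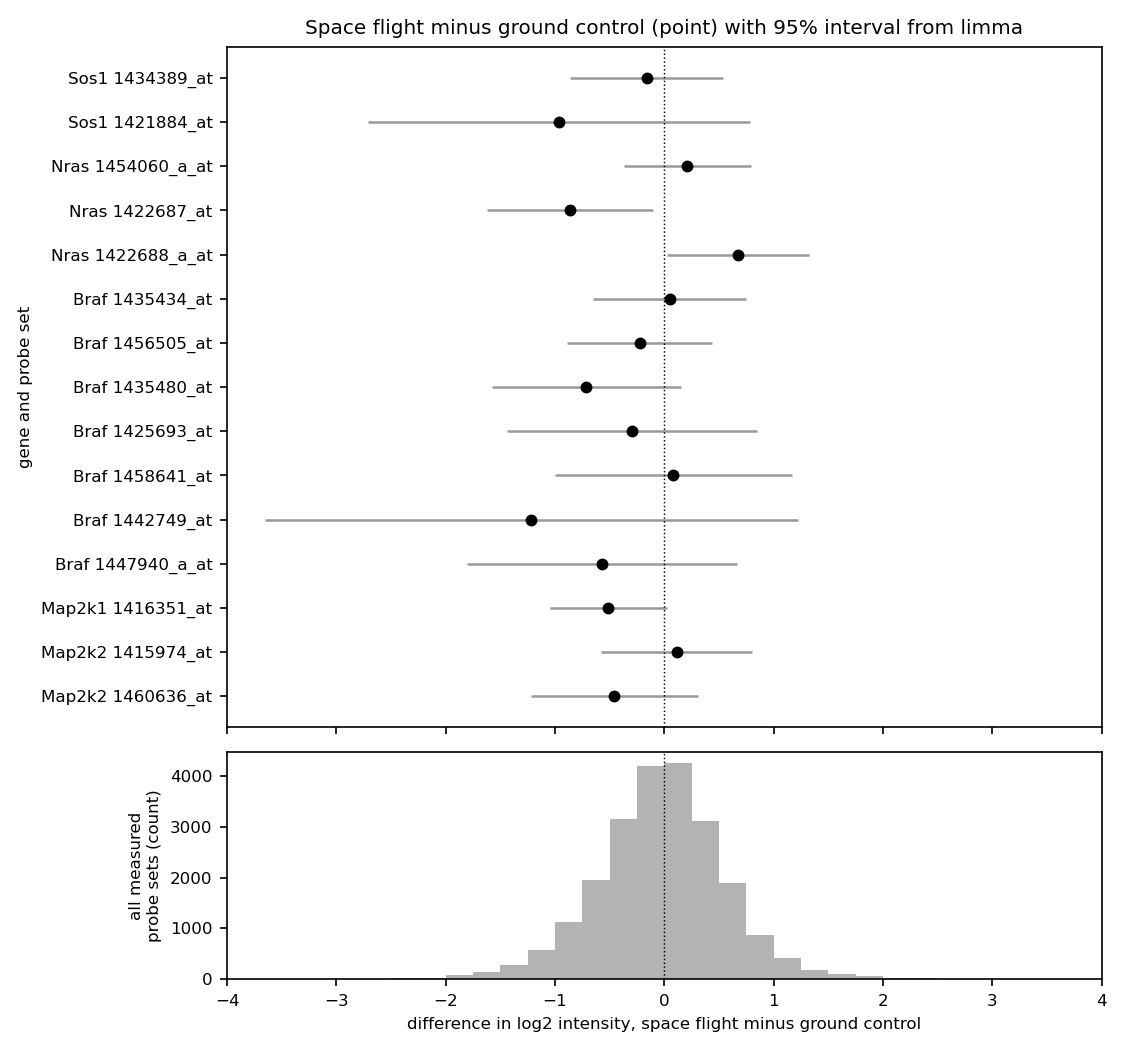
Upper panel: difference in log2 intensity, space flight minus ground control, of each measured probe set (point) with its 95% interval from limma (line); lower panel: the count of all 22519 measured probe sets over the same axis in bins of 0.25. The intervals of Nras probe sets 1422687_at and 1422688_a_at are the only 2 that do not reach 0, and they lie on opposite sides of it.

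Sos1, the exchange factor that activates Ras, stood close to level on its brightest probe set. On 1434389_at it had 10.58 and 9.93 in space flight, against 10.54 and 10.29 in ground control. The ground control values lay between the 2 space flight values, so the groups overlapped. The difference was −0.16 ± 0.31 (SE, n = 2 arrays per group; limma adjusted p = 0.876), with a 95% interval from −0.86 to 0.54. The other measured probe set, 1421884_at, had 7.12 and 4.74 in space flight and 6.76 and 7.03 in ground control. Its deposited intensity on space flight array 2 was 13.9, against 121.5 on space flight array 1, and 84.9 and 107.5 on the ground control arrays. The difference of −0.96 ± 0.78 (SE, n = 2; limma adjusted p = 0.665) thus came from 1 array. It became 0.23 without space flight replicate 2 and, without replicate 1, −2.16. The mean over the 4 arrays, 6.41, was just above the dim limit.

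The other 3 Sos1 probe sets were dim, with differences of 0.86 on 1421885_at, 0.87 on 1431311_at and −0.0027 on 1421886_at. On 1421886_at the 2 space flight arrays had deposited intensities of 2.42 and 130.0, wider apart than either was from the ground control values of 24.5 and 36.5 as a ratio. In the fit without a filter on dim probe sets none of these 3 passed, and each unadjusted p was above 0.05.

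Nras, a Ras GTPase, held the 2 members with the smallest p-values, and they pointed in opposite directions. On probe set 1422687_at the deposited intensities were 1797 and 900.9 in space flight, against 2108 and 2773 in ground control. On the log2 scale these were 10.80 and 9.91 in space flight, against 11.02 and 11.42 in ground control. Both space flight arrays were thus lower than both ground control arrays. The difference was −0.86 ± 0.34 (SE, n = 2; limma unadjusted p = 0.0299, adjusted p = 0.363), a 1.82-fold lower mean with a 95% interval from −1.62 to −0.10.

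On probe set 1422688_a_at the deposited intensities were 2395 and 1654 in space flight, against 1149 and 1438 in ground control. The log2 values were 11.21 and 10.77 in space flight, against 10.13 and 10.51 in ground control, so here both space flight values lay above both ground control values. The difference was 0.67 ± 0.29 (SE, n = 2; limma unadjusted p = 0.0434, adjusted p = 0.402), a 1.60-fold higher mean with a 95% interval from 0.025 to 1.32. The suffix a marks probe sets that the maker designed to match several transcripts of 1 gene. The third Nras probe set and the brightest, 1454060_a_at, had 11.35 and 10.98 in space flight, against 10.86 and 11.06 in ground control, and the groups overlapped. Its difference was 0.21 ± 0.26 (SE, n = 2; limma adjusted p = 0.795). Averaged over the 3 probe sets the differences came to 0.0066.

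The annotation gives the same source sequence record for 1422687_at and 1422688_a_at. Within each array, the log2 value of 1422688_a_at minus that of 1422687_at was 0.41 and 0.86 in space flight, against −0.89 and −0.92 in ground control. This contrast averaged 0.63 ± 0.31 (SD, n = 2 arrays) in space flight and −0.90 ± 0.018 (SD, n = 2) in ground control, a shift of 1.54 between the groups. The groups did not overlap, and the exact two-sided permutation p was 0.333, the smallest that 2 against 2 arrays allow. The contrast of 1454060_a_at minus 1422687_at shifted by 1.07, with 0.55 and 1.07 in space flight against −0.16 and −0.36 in ground control (exact permutation p = 0.333). These contrasts were set up after the values of the probe sets had been seen. They describe values that had already been seen to differ, neither probe set passed the test over all measured probe sets, and they do not tell which probe set reports the gene.

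Probe sets of 1 gene with opposite signs were common on the array. Of the 4 genes here with at least 2 measured probe sets, 3 (Nras, Braf and Map2k2) had differences of both signs, and so did 49.9% of the 4869 such genes on the array. That share was not matched for the number of measured probe sets, which was 7 for Braf and 3 for Nras. Both of the 2 measured pairs that share a source record, those of Nras and Map2k2, were opposite in sign, as were 36.8% of all 1760 such pairs.

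Braf, a Raf kinase that phosphorylates MEK, had 7 measured probe sets, 5 below 0 and 2 above, and none was called. The brightest, 1435434_at, had 9.95 and 9.98 in space flight, against 10.20 and 9.63 in ground control. Both space flight values lay between the ground control values, and the difference was 0.050 ± 0.31 (SE, n = 2; limma adjusted p = 0.968). The next, 1456505_at, had 9.81 and 9.67 in space flight, against 9.83 and 10.11 in ground control, with a difference of −0.23 ± 0.29 (SE, n = 2; limma adjusted p = 0.804). Space flight lay lower without overlap there, but array 1 of each group differed by less than the replicates did. Probe set 1435480_at had the smallest p of the 7. It had 7.76 and 8.51 in space flight, against 8.92 and 8.77 in ground control, and both space flight values were lower. The difference was −0.71 ± 0.39 (SE, n = 2; limma unadjusted p = 0.0956, adjusted p = 0.502).

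The largest difference of any measured member was that of Braf probe set 1442749_at, and it rested on 1 array. Its deposited intensities were 295.0 and 2.63 in space flight, against 207.3 and 110.6 in ground control. Space flight array 1 held the highest of the 4 values and space flight array 2 the lowest. The difference was −1.22 ± 1.08 (SE, n = 2; limma adjusted p = 0.696), and it became 0.84 without space flight replicate 2 and, without replicate 1, −3.27. The dimmest of the 7, 1447940_a_at, stood at −0.57 ± 0.55 (SE), 1425693_at at −0.30 ± 0.51 and 1458641_at at 0.082 ± 0.48. Of these 3, space flight was lower without overlap on 1447940_a_at, and the groups overlapped on the other two.

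Of the 2 dim Braf probe sets, 1447941_x_at stood at 0.37, opposite in sign to 1447940_a_at, with which it shares its source record. The suffix x marks probe sets that may also bind unrelated transcripts. The other, 1445786_at, stood at −1.57, with deposited intensities of 51.8 and 1.95 in space flight, against 122.6 and 56.8 in ground control. In the fit with no filter its unadjusted p was 0.0897 and its adjusted p 0.636. Over the 5 dim members of Sos1 and Braf deposited intensities ran from 1.95 to 130.0, and 3 differences were above 0 and 2 below. Of the 5, 2 had groups that did not overlap. Among all measured probe sets that share was 43.2%, and it was not computed over dim probe sets.

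Map2k1, which encodes the ERK-activating kinase MEK1, had 1 probe set, 1416351_at, and was lower on both space flight arrays. Its deposited intensities were 4475 and 2979 in space flight, against 5341 and 5210 in ground control. The log2 values were 12.13 and 11.59 in space flight, against 12.41 and 12.34 in ground control, and the groups did not overlap. The difference was −0.51 ± 0.24 (SE, n = 2; limma unadjusted p = 0.0582, adjusted p = 0.434), a 1.43-fold lower mean with a 95% interval from −1.05 to 0.022. Most of it lay on space flight array 2: the difference was −0.78 without space flight replicate 1 (adjusted p = 0.0297) and −0.25 without space flight replicate 2 (adjusted p = 0.624).

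Map2k2, which encodes the closely related MEK2, had no common direction on its 2 probe sets. On the brighter, 1415974_at, it had 11.28 and 12.09 in space flight, against 11.80 and 11.34 in ground control. The groups overlapped, and the difference was 0.11 ± 0.31 (SE, n = 2; limma adjusted p = 0.916). On 1460636_at it had 8.65 and 9.20 in space flight, against 9.31 and 9.47 in ground control. Here both space flight values were the lower ones, with a difference of −0.46 ± 0.34 (SE, n = 2; limma adjusted p = 0.633). The within-array contrast of 1415974_at minus 1460636_at was 2.63 and 2.89 in space flight, against 2.49 and 1.88 in ground control, a shift of 0.57. The exact permutation p was 0.333, the smallest that 2 against 2 arrays allow. Like those of Nras, this contrast pairs probe sets already seen to differ in sign, so it adds no support. Whether Map2k1 and Map2k2 differed from each other in their response was not tested.

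Leaving out 1 array moved the count of members called only in the absence of space flight replicate 1, where space flight is array 2 alone. There 4 of the 15 members were called, all lower: Nras 1422687_at at −1.31 (adjusted p = 0.00250), Map2k1 at −0.78, Sos1 1421884_at at −2.16 (adjusted p = 0.0293) and Braf 1442749_at at −3.27 (adjusted p = 0.000597). In that fit the lone space flight array is assumed to vary like the ground control arrays, which were closer to each other, and 2632 of all 22519 measured probe sets were called, against 11 with all arrays. Without space flight replicate 2, which leaves array 1, 0 members were called while 1654 of all measured probe sets were. Nras 1422687_at stood at −0.42 and Nras 1422688_a_at at 0.90 (adjusted p = 0.439 and 0.0559) in that fit. With any 1 array left out both of these Nras probe sets and Map2k1 kept the sign of their difference. That follows from groups that do not overlap, and it holds for every such probe set, so it adds no support.

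**Figure D3:**
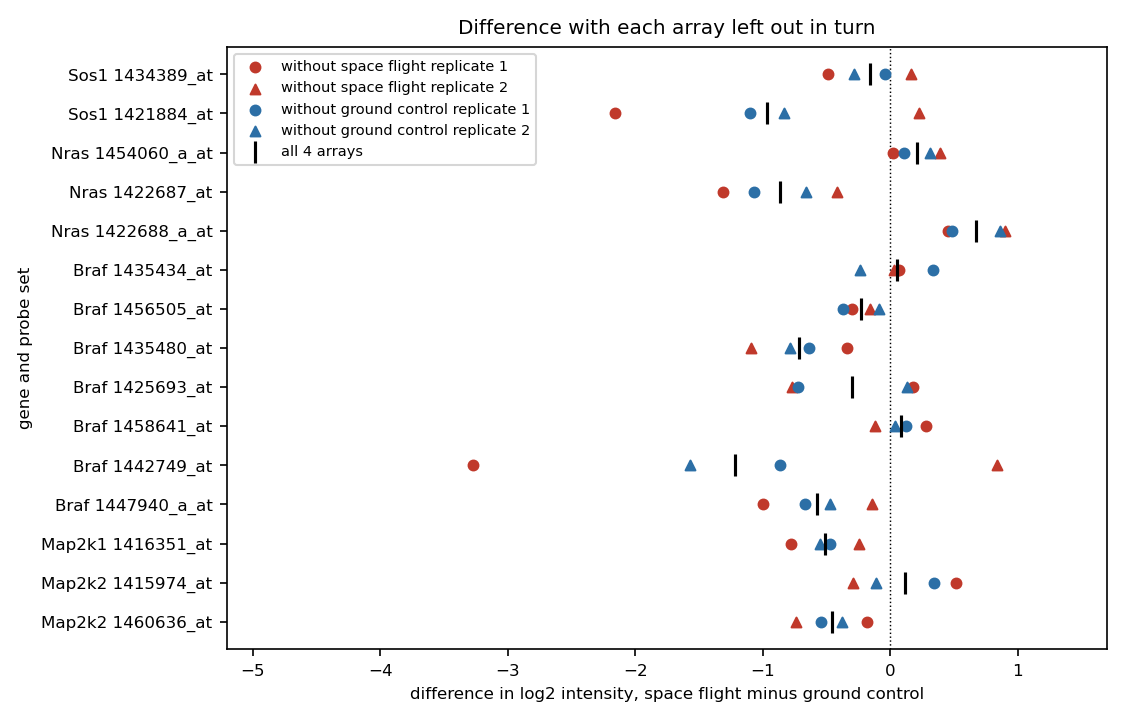
Difference in log2 intensity, space flight minus ground control, of each measured probe set with all 4 arrays (black bar) and with each array left out in turn (coloured points). The widest spreads are those of Braf 1442749_at, from −3.27 to 0.84, and Sos1 1421884_at, from −2.16 to 0.23. The points of Nras 1422687_at stay below 0 and those of Nras 1422688_a_at above it, as they must where groups do not overlap.

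The member with the largest moderated statistic was Nras 1422687_at. Among 19245 measured probe sets of other genes, those nearest to its pattern over the 4 arrays, by Euclidean distance after each probe set's mean was subtracted, were those of Exoc3l (distance 0.059), Fgd4 (0.073) and Hip1 (0.097). With 4 arrays such likeness is a description only.

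The other genes of the Ras to ERK pathway did not pass the test either. Of 52 further genes listed by role, 44 had a probe set named in the annotation and 39 were measured, each read on its brightest probe set. Limma called 0 higher and 0 lower, where 0.018% and 0.00898% of 11141 measured genes were called. With an unadjusted p under 0.05, 0 were higher and 3 lower, where 6.22% and 6.69% of measured genes were. That is 7.69% of the 39, against 12.9% of measured genes in either direction. Their differences had a median of −0.0080, with 19 above 0 and 20 below, where 51.2% of measured genes were above 0.

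Among the adaptors and exchange factors upstream of Ras 9 genes were measured. Rasgrp3, an exchange factor for Ras and Rap GTPases, had 7.40 and 6.55 in space flight, against 8.52 and 8.69 in ground control. Both space flight values were lower, and the difference of −1.62 ± 0.43 (SE, n = 2; limma unadjusted p = 0.00432, adjusted p = 0.200) was the largest of the 39. Its other measured probe set gave −2.60. Rasgrp3 stood at −2.05 without space flight replicate 1 and at −1.20 without replicate 2. It stood at −1.71 without ground control replicate 1 and at −1.54 without ground control replicate 2. The docking proteins Gab1 and Gab2 stood at −0.65 ± 0.38 and 0.16 ± 0.21 (SE), with −1.56 and −0.47 as the lowest of their other measured probe sets. Gab1 stood at −0.19 without space flight replicate 1 and at −1.10 without replicate 2. The list had 5 genes above 0 and 4 below.

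Of the other Ras family GTPases, 4 were measured, with Rras at 0.29 ± 0.22 and Rit1 at 0.28 ± 0.22 (SE). The other measured probe set of Rit1 gave −0.49. On the brightest probe sets, 2 genes were above 0 and 2 below. Of 8 measured GTPase-activating proteins, which switch Ras off, 4 were above 0 and 4 below. Rasa3, one of them, had 10.71 and 11.25 in space flight, against 11.87 and 11.73 in ground control, a difference of −0.82 ± 0.26 (SE, n = 2; limma unadjusted p = 0.0115, adjusted p = 0.264). Its difference was −0.55 without space flight replicate 1 and −1.09 without replicate 2. Dab2ip, another, stood at 0.62 ± 0.37, with −0.69 on its other measured probe set.

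Of the Raf family beside Braf, Araf stood at 0.047 ± 0.33 on its brightest probe set, and its 5 measured probe sets ran from −1.33 to 0.047. The kinase-related scaffolds Ksr1 and Ksr2 stood at −0.36 ± 0.50 and 0.78 ± 0.66 (SE). Among 8 scaffolds and modulators, Shoc2, a scaffold that promotes Raf activation, stood at 0.73 ± 0.33 (SE, n = 2; limma unadjusted p = 0.0516, adjusted p = 0.419), with −0.78 on its other measured probe set. Pebp1, an inhibitor of Raf signalling, stood at 0.013 ± 0.13, and the 14-3-3 protein gene Ywhab at −0.28 ± 0.14. Iqgap1, a scaffold named here after its values with 1 space flight array left out were seen, stood at −0.39 ± 0.21 with all arrays. It stood at −0.72 without space flight replicate 2 and at −0.052 without replicate 1. Of its 4 measured probe sets 3 were above 0, up to 0.55.

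Of 7 measured ERK substrates, 2 were above 0 and 5 below. Elk3, a transcription factor of the Ets family, had 9.23 and 9.16 in space flight, against 10.34 and 9.99 in ground control. Both space flight values were lower, with a difference of −0.97 ± 0.30 (SE, n = 2; limma unadjusted p = 0.0106, adjusted p = 0.259) and −0.39 on its other measured probe set. The difference of Elk3 was −1.00 without space flight replicate 1 and −0.93 without replicate 2. Mknk2, a kinase that phosphorylates the translation factor eIF4E, stood at 0.25 ± 0.23.

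**Figure D4:**
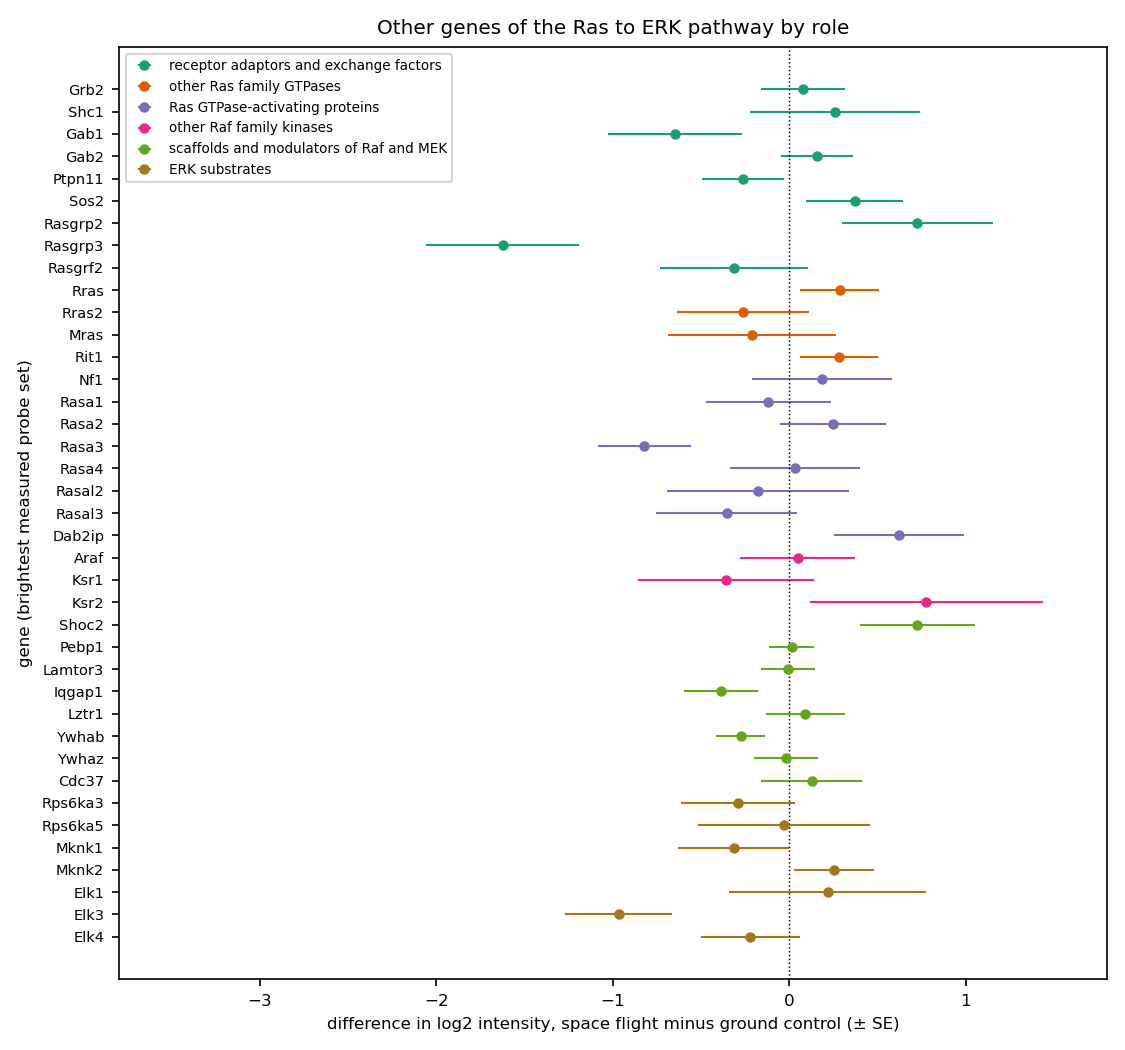
Difference in log2 intensity, space flight minus ground control, of 39 other genes of the pathway on their brightest measured probe set (point, with its standard error from limma as the bar), coloured by role. Rasgrp3 at −1.62, Elk3 at −0.97 and Rasa3 at −0.82 lie farthest below 0.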

How the data were processed

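Transcripts were measured on Affymetrix 3' arrays. The deposited table holds 1 linear intensity per probe set and array, made by the authors with GCOS per the submitters' processing notes; how it summarised and scaled probes, and its version, is not given in the sources used here. Each array had the same trimmed mean (2% off either end), 500.004. No detection calls or genome build were used.

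From these, log2(intensity + 16) was computed in R 4.3.3. Array medians differed by 0.385, above the tolerance of 0.1, so arrays were quantile normalized without 64 control probe sets. Of 45037 others, 34945 had 1 gene symbol, 932 had several and 9160 none named here; 34741 symbols were found in a GRCm38.p6 RefSeq table and 0 changed. Measured means a 4-array mean of at least 6.40, the median over probe sets. Adding 16 before log2 understates differences of dim probe sets.

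Groups were compared with limma 3.58.1 (lmFit, eBayes with intensity trend, two-sided; 2 residual and 9.31 moderated degrees of freedom), adjusted by Benjamini-Hochberg over 22519 measured probe sets at 0.05. The procedure was tested on simulated data. Of further pathway genes, text names per role the 2 with the largest statistic and the brightest, and of marker lists the 2 brightest. Members and lists were chosen with earlier results of these data known. Precision is limited by 4 arrays.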

Additional observations from a re-analysis of the deposited data

How the results depend on the processing

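With 4 arrays, of which 2 per group, each value rests on few measurements, and intensities near the dim limit of 6.40 are the least certain. Over 13 alternatives the 15 measured members gave 183 values, of which 12 changed sign and 4 passed the threshold, all 4 without space flight replicate 1. The count of members called was otherwise 0, and ran from 0 to 4 with 1 array left out. The count of further pathway genes called was 0 except with 1 space flight array left out. Those fits also called far more of all measured probe sets than the fit with all arrays. The count over all measured probe sets was 11, against 18 under cyclic loess, 0 with each array shifted to 1 median, 19 with a pseudocount of 64, 0 with no filter, 0 without trend, 7 in a fit over genes, 334 with a replicate block, and 1 to 2632 with 1 array left out. The replicate block called 0 members and 0 further pathway genes; same-numbered arrays share only a number, and their deviations from the group means correlated at 0.066 across probe sets. The median of the members was −0.46 with each array shifted to 1 median, where the median of all probe sets was −0.18, and 0.050 over the 5 brightest probe sets of the genes, and ran from −0.48 to −0.14 with 1 array left out. A shift to 1 median also changed the sign of Nras 1454060_a_at to −0.039, Braf 1435434_at to −0.19 and Map2k2 1415974_at to −0.11. Leave-one-out ranges of the members that changed sign were −0.49 to 0.16 for Sos1 1434389_at, −2.16 to 0.23 for Sos1 1421884_at, −0.23 to 0.33 for Braf 1435434_at, −0.77 to 0.18 for Braf 1425693_at, −0.12 to 0.28 for Braf 1458641_at, −3.27 to 0.84 for Braf 1442749_at and −0.29 to 0.52 for Map2k2 1415974_at. The causes were not tested.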
